A study of Rattus norvegicus with 10 samples.

Results

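The BCL2 family governs whether mitochondria release the proteins that start apoptosis. Here 10 of its genes were followed in mammary tumours of rats, before and after oral hydroxytyrosol, a phenolic compound of olive oil. A gene counted as measured where a probe set, the group of short probes that reads 1 transcript on an Affymetrix array, carried that gene's symbol and no other in the platform annotation. This gave 8 of the 10 genes on 14 probe sets, out of 14217 genes with such a probe set. The probe set for Bax, a pore-forming member, is annotated with another locus too and was given no value, and Pmaip1, which encodes the BH3-only protein Noxa, was not analysed here. A filter left out the dimmest 40% of probe sets by their mean over all arrays, those below a log2 signal of 5.14. It kept 7 of the 8 genes, on 10 probe sets, and Bcl2 itself lay under it.

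The 5 tumours, which the labels call 66D2, 67D3, 45D3, 49I1 and 51I1, gave 2 arrays each, and per-tumour values below follow that order. Final samples were taken at sacrifice from rats 19 weeks old, in week 7 after the biopsy. By then the animals had received hydroxytyrosol by gavage at 0.5 mg/kg, 5 days a week, for 6 weeks. Basal samples were Trucut needle biopsies from the same tumours at 12 weeks of age, at a tumour volume of 2 cm3 and with no treatment yet given. Both groups came from female Sprague-Dawley rats given the carcinogen DMBA (dimethylbenzanthracene) once by mouth at 100 mg/kg, and all tumours were Bloom-Richardson grade II. The labels describe the final piece as total tumour and the basal piece as a biopsy, whereas the design text calls both Trucut samples. Hydroxytyrosol, age, tumour growth and the way of sampling differ together between the groups and cannot be told apart, and tumours left untreated until the later age were not analysed here.

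In this family, pro-survival proteins such as BCL2, BCL-XL (from Bcl2l1) and MCL1 hold the pore-forming effectors BAX and BAK in check at the outer mitochondrial membrane. BH3-only proteins, among them BID, BIK, BIM (from Bcl2l11), PUMA (from Bbc3) and NOXA, bind the pro-survival proteins or the effectors and so release the pore, after which cytochrome c leaves the mitochondria and caspases are activated. In the mouse mammary gland, BCL-XL delays the death of secretory cells after weaning, MCL1 is needed for the survival of the secretory epithelium, and BIM clears cells from the lumen of growing ducts. Much of the control of these proteins runs through their stability, cleavage and phosphorylation, which an RNA array does not read.

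The arrays were alike in overall signal, with medians between 7.75 and 7.80 in final samples and between 7.67 and 7.79 in basal samples. The 3′ minus 5′ signal of the hexokinase control, a difference that grows when transcripts are broken or copied only in part, was 1.02 ± 0.08 (SD, n = 5) in final and 1.57 ± 0.59 (SD, n = 5) in basal samples, with the highest values in the biopsies of 45D3 (2.36) and 67D3 (2.03). Of 10 luminal epithelial markers 8 were above the dim cutoff, Epcam among them, and Esr1 and Foxa1 were not. The summed signal of the 8, on the log2 scale, ranged from 14.97 to 15.51 in final samples and from 14.83 to 15.45 in basal samples. Skeletal muscle markers were higher in final samples, with 9 of 9 tested genes higher and summed signals of 10.84 to 15.41 in final against 10.56 to 11.47 in basal samples. Tnnc2, Mb, Tnnt3 and Ckm were each above the dim cutoff on 3 of 10 arrays, all of them final. They passed the filter only through the group where they were high, so the count of 9 was partly fixed by the filter. Most of the basal sum came from Myh1, at 10.16 to 10.88 in basal samples. Markers of fibroblasts (10 of 10 tested), endothelium (8 of 8) and adipocytes (8 of 8) were also higher in the mean of final samples. These lists did not move alike in all tumours: in 45D3 the medians were -1.22 for fibroblasts, -0.85 for endothelium, -0.60 for adipocytes and 0.22 for muscle, which was also near 0 in 51I1 (0.21). The part of these tissues in the results below was not tested beyond the muscle covariate. A lower signal of a gene in bulk tissue can come from fewer cells of a type or from less RNA per cell, and the 2 cannot be told apart.

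Transcripts of the BCL2 family did not differ detectably between final and basal samples, on the pro-survival or the pro-death side. Of the 7 members tested, 4 were higher and 3 lower in final samples, and the differences in log2 signal ran from -0.040 for Bid to 0.15 for Bcl2l1. By main probe sets, the median absolute difference of the 7 was 0.039, against 0.12 over all 18625 probe sets tested. The other tested probe sets of Bcl2l1, Mcl1 and Bid differed by more, at 0.37, 0.19 and 0.10. The 7 members varied between tumours no less than other probe sets. Their paired differences had a median SD of 0.36, against 0.30 over all probe sets tested. No member passed limma's adjusted p threshold of 0.05 (0 of 7, smallest adjusted p = 0.804), nor did any probe set on the array (percentage called 0). At an unadjusted p under 0.05 there were 0 of 7 members by limma and by the methods' t-test, where limma gave 8.02% of all probe sets, 3.43% higher and 4.59% lower. None of the 7 moved the same way in all 5 tumours, which 8.71% of all probe sets did (3.96% higher and 4.75% lower), and none had final and basal values that did not overlap, which held for 1.24%. The 95% intervals of the 7 differences, unadjusted and from main probe sets, together spanned -0.44 to 0.51, so differences within these bounds could go unseen with 5 pairs. The bounds are no detection limit, and larger differences could go unseen too. Jun, outside the family, differed by -0.75 and did not pass the adjusted threshold (limma adjusted p = 0.413). On other tested probe sets the intervals reached 0.80 for Bcl2l1 and 0.64 for Bid.

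**Figure D1:**
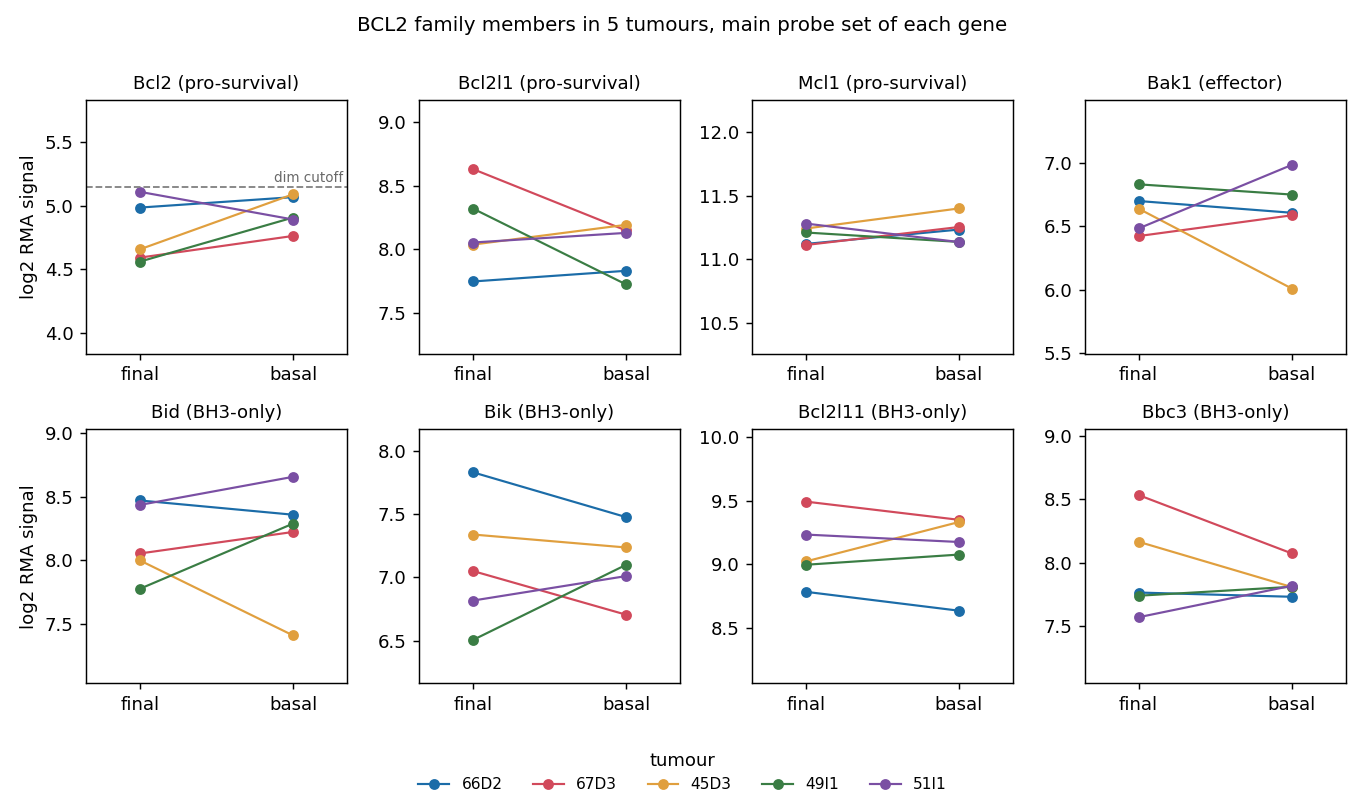
Log2 RMA signal (vertical axis, a span of 2 log2 units in every panel) of the main probe set of 8 BCL2 family genes in final (left) and basal (right) samples, with a line for each of the 5 tumours. The lines cross or run in both directions in every panel, and the 10 Bcl2 values lie under the dim cutoff of 5.14 (dashed).

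The pro-survival members were Bcl2, Bcl2l1 and Mcl1. Bcl2, the founding member of the family, gave log2 signals of 4.99, 4.59, 4.66, 4.56 and 5.11 in final samples and of 5.07, 4.76, 5.09, 4.91 and 4.89 in basal samples. All 10 arrays were under the dim cutoff, so these signals are not read as an expression level and no ratio is given for Bcl2. In the fit without the filter its dim signal differed by -0.16 (SE 0.12, 95% interval -0.44 to 0.11, limma adjusted p = 0.778) and was lower in 4 of 5 tumours, all but 51I1.

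Bcl2l1 was read by 3 probe sets, of which the brightest served as the main one. Its log2 signal was 7.75, 8.63, 8.04, 8.32 and 8.05 in final samples, against 7.83, 8.15, 8.19, 7.72 and 8.13 in basal samples. The difference was 0.15 (SE 0.15, 95% interval -0.20 to 0.51, limma adjusted p = 0.804), higher in 67D3 (0.48) and 49I1 (0.60) and lower by 0.16 or less in the other 3 tumours. It was 0.042 without 49I1, 0.070 without 67D3 and -0.054 with the skeletal muscle markers as a covariate. The groups overlapped, and the final values spread more widely (SD 0.33) than the basal ones (SD 0.21). A second, dimmer Bcl2l1 probe set was near the dim cutoff, at 5.33, 5.28, 5.76, 5.21 and 5.17 in final and 5.23, 4.94, 4.59, 5.05 and 5.06 in basal samples. It was higher in 5 of 5 tumours (0.37, SE 0.18, limma adjusted p = 0.650), as 1 of the 10 tested probe sets of the family to move one way throughout, where 8.71% of all probe sets did. Most of that came from 45D3 (1.17), and without 45D3 the difference was 0.18. The third probe set stayed between 3.73 and 4.14 on all arrays, under the cutoff, so only 1 of the 3 probe sets read Bcl2l1 clearly above it.

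Mcl1, a short-lived protein that binds BAK and BIM, was the steadiest member by main probe sets. Its paired differences had an SD of 0.14 there and of 0.22 on its other probe set. The main probe set gave 11.12, 11.11, 11.24, 11.21 and 11.28 in final samples and 11.24, 11.26, 11.40, 11.14 and 11.14 in basal samples. The difference was -0.039 (SE 0.095, 95% interval -0.27 to 0.19, limma adjusted p = 0.930), and both groups had a small spread between tumours, with SDs of 0.07 in final and 0.11 in basal samples. As a ratio of signals the interval ran from 0.832 to 1.14. The other, dimmer probe set differed by 0.19 (SE 0.11, limma adjusted p = 0.691), with 9.91, 9.67, 9.95, 9.64 and 10.05 in final and 9.83, 9.57, 9.42, 9.67 and 9.79 in basal samples. It was higher in 4 of 5 tumours while the main one was lower in 3 of 5, so the probe sets of Mcl1 do not give 1 direction, and in 45D3 they were 0.53 and -0.16. Without 45D3 the dimmer one differed by 0.10.

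The pro-death side began with Bak1, the effector that oligomerises in the outer mitochondrial membrane. Its log2 signal was 6.70, 6.42, 6.64, 6.83 and 6.48 in final samples, against 6.61, 6.59, 6.01, 6.75 and 6.99 in basal samples. The biopsy of 45D3 was the lowest of the 10 arrays and that of 51I1 the highest, and the final samples lay between them. The difference was 0.028 (SE 0.17, 95% interval -0.37 to 0.42, limma adjusted p = 0.972), higher in 3 of 5 tumours, and -0.12 without 45D3.

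Bid is cut by caspase-8 and carries death-receptor signals to the mitochondria. On the main probe set it gave 8.47, 8.05, 8.0, 7.77 and 8.43 in final and 8.36, 8.22, 7.41, 8.29 and 8.66 in basal samples. The difference was -0.040 (SE 0.17, 95% interval -0.44 to 0.36, limma adjusted p = 0.960), and -0.25 with the hexokinase difference as a covariate. Again the biopsy of 45D3 was the lowest array, and Bid was higher by 0.59 in the final sample of that tumour, while it was lower by 0.51 in 49I1. The other Bid probe set had the same pair at the extremes, 1.08 in 45D3 and -0.53 in 49I1, with a mean difference of 0.10 (limma adjusted p = 0.916) that was -0.14 without 45D3.

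Bik, a BH3-only protein found mainly at the endoplasmic reticulum, had signals of 7.83, 7.05, 7.34, 6.51 and 6.82 in final samples and of 7.48, 6.71, 7.24, 7.10 and 7.01 in basal samples. The mean difference was 0.0029 (SE 0.16, 95% interval -0.38 to 0.39, limma adjusted p = 0.997), made of higher values in 66D2 (0.35), 67D3 (0.34) and 45D3 (0.10) and lower ones in 49I1 (-0.59) and 51I1 (-0.19). Tumour 66D2 was the highest in both groups.

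Bcl2l11 encodes BIM, which binds all the pro-survival proteins. Its main probe set gave 8.78, 9.50, 9.02, 9.0 and 9.24 in final samples and 8.64, 9.35, 9.33, 9.08 and 9.18 in basal samples. Tumour 66D2 was the lowest and 67D3 the highest in both groups, and the paired differences had an SD of 0.19, less than the SDs between tumours of 0.27 in final and 0.29 in basal samples. The difference was -0.0080 (SE 0.11, 95% interval -0.26 to 0.24, limma adjusted p = 0.989), which as a ratio of signals is 0.835 to 1.18. The other 2 probe sets of Bcl2l11 were under the dim cutoff on all 10 arrays.

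Bbc3 encodes PUMA, a BH3-only protein and p53 target. It had signals of 7.76, 8.53, 8.16, 7.74 and 7.57 in final samples, against 7.73, 8.07, 7.81, 7.81 and 7.82 in basal samples. Apart from 67D3 the biopsies were nearly equal, and the final samples were more spread out (SD 0.39 in final, 0.13 in basal). The difference was 0.11 (SE 0.13, 95% interval -0.21 to 0.42, limma adjusted p = 0.848), led by 67D3 (0.46) and 45D3 (0.36) and lower in 49I1 and 51I1. It was 0.018 without 67D3, 0.044 without 45D3 and -0.085 with the hexokinase difference as a covariate.

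**Figure D2:**
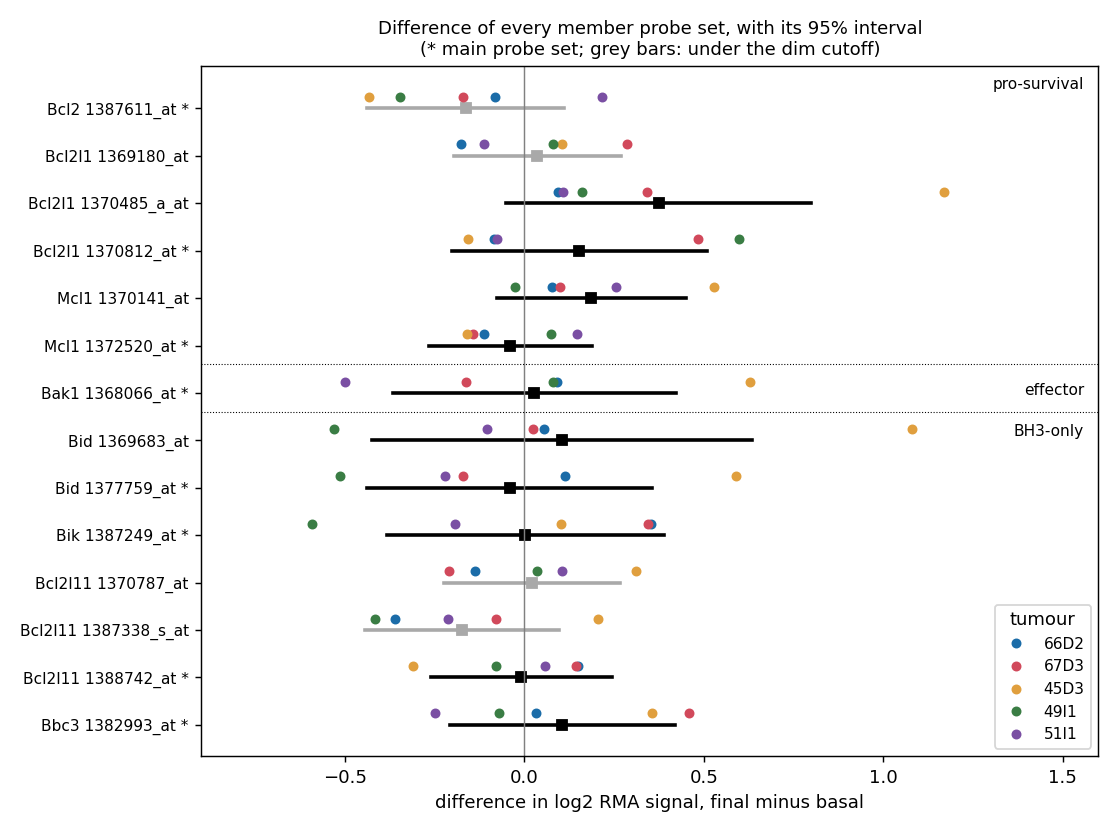
Difference in log2 RMA signal, final minus basal (horizontal axis), of the 14 probe sets of the family. Squares and bars give the limma difference with its 95% interval, coloured points the 5 tumours, and stars the main probe set of a gene; every interval includes 0.

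Set against each other, the pro-survival and the pro-death members had medians near 0. The 5 pro-death members (Bak1, Bid, Bik, Bcl2l11 and Bbc3) had a median difference of 0.0029, and the 2 tested pro-survival members (Bcl2l1 and Mcl1) one of 0.057, or -0.039 with Bcl2 included, beside -0.0003 over all probe sets tested. Since probe sets differ in how strongly they bind their target, only differences were compared, and no ratio of 1 gene's level to another's was formed.

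Within single tumours the sides were further apart than these medians show. By tumour, the pro-death median was 0.11, 0.14, 0.36, -0.080 and -0.22, with 5, 3, 4, 1 and 1 of the 5 genes higher. The pro-survival median, Bcl2 included, was -0.084, -0.14, -0.16, 0.074 and 0.15, so the sides had opposite signs in 5 of 5 tumours. That count rests on Bcl2, whose signal was dim, and on the choice of probe set. With the 2 tested pro-survival members alone the signs were opposite in 4 of 5 tumours. With the mean over all probe sets of each gene, Bcl2 and the dim probe sets included, they were opposite in 3 of 5. How often such medians of other genes have opposite signs was not tested, so the counts are a description. The median over all probe sets tested stayed between -0.050 and 0.054 in every tumour. Luminal epithelial markers had median differences of 0.09, 0.26, 0.19, 0.06 and -0.33 in the same tumours and fibroblast markers of 1.43, 1.23, -1.22, 0.57 and 0.98. The part of either in the pro-death values was not tested.

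**Figure D3:**
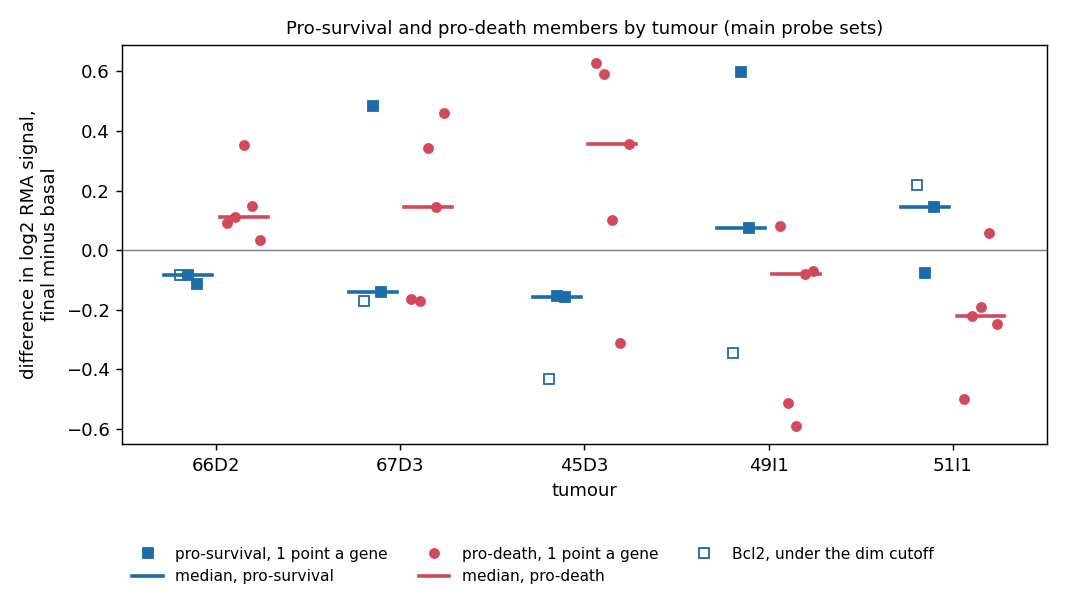
Difference in log2 RMA signal, final minus basal (vertical axis), of each measured member in each of the 5 tumours (horizontal axis), for pro-survival (squares) and pro-death (circles) genes with their medians as bars. Pro-death medians are above 0 in 66D2, 67D3 and 45D3 and below 0 in 49I1 and 51I1; Bcl2 (open squares) is under the dim cutoff.

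Tumour 45D3 also held the largest disagreements between probe sets of 1 gene. For the other tested probe set minus the main one, the gap in 45D3 was 1.32 for Bcl2l1, 0.69 for Mcl1 and 0.49 for Bid. In the other 4 tumours it lay between -0.44 and 0.18 for Bcl2l1, -0.10 and 0.24 for Mcl1, and -0.056 and 0.19 for Bid. The hexokinase 3′ minus 5′ signal of 45D3 was 0.89 in the final and 2.36 in the basal sample, a difference of -1.47, the largest of the 5 tumours. In 67D3, where it was 1.01 in the final and 2.03 in the basal sample, the gaps were -0.14, 0.24 and 0.19. With this control as a covariate, the second probe set differed by 0.047 for Bcl2l1 and 0.057 for Mcl1, against 0.37 and 0.19 without it. For Bid the second probe set was -0.28 with the covariate and 0.10 without it, and the main one -0.25 with and -0.040 without, so both Bid probe sets lay further from 0 with it. That fit has 1 more term on the same 10 arrays, and the part of RNA quality in the differences was not tested further.

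**Figure D4:**
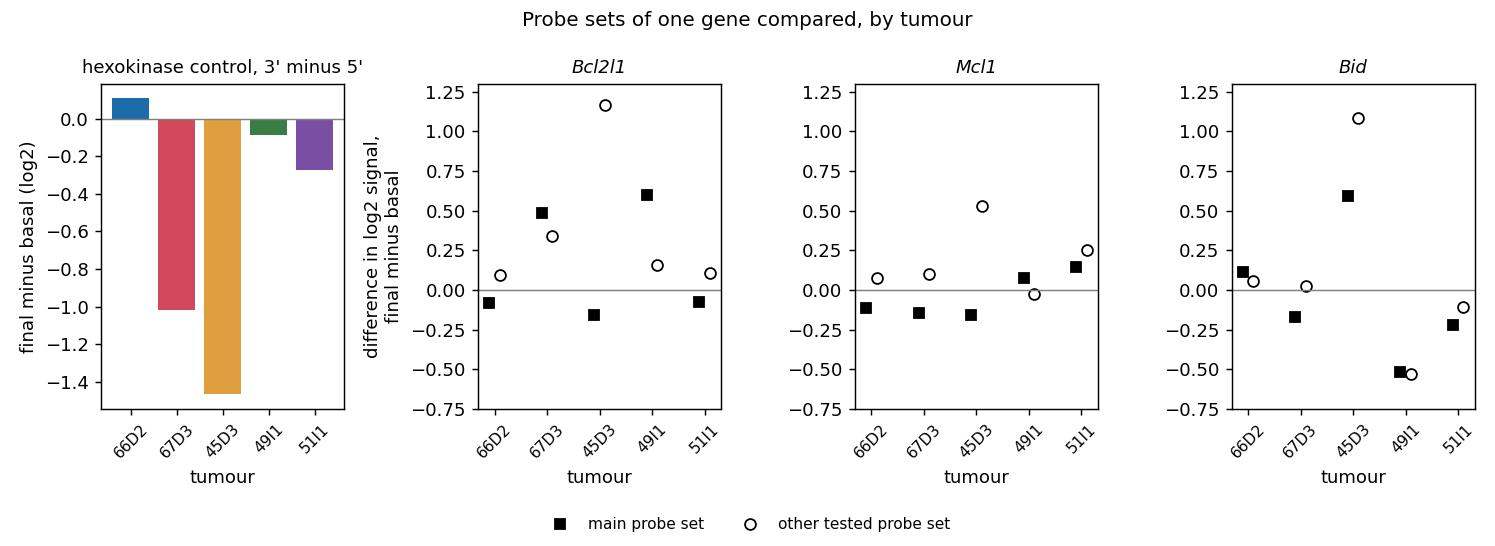
Left, change of the hexokinase control's 3′ minus 5′ signal between final and basal samples by tumour (log2). Right, differences in log2 signal of the main (squares) and the other tested probe set (circles) of Bcl2l1, Mcl1 and Bid; in 45D3 the circles are highest, at 1.17, 0.53 and 1.08.

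Relatives of these genes outside the 10 gave no call either. Of 4 further pro-survival genes 2 were tested, and of 10 further pro-death or mixed genes 6, with 0 past the adjusted threshold and 0 at an unadjusted p under 0.05 by limma in both lists. Bcl2l2, which encodes the pro-survival protein BCL-W, differed by -0.12 (limma adjusted p = 0.762) and was lower in 4 of 5 tumours. Among the pro-death or mixed relatives, Bcl2l14 differed by 0.20 and Bad, a BH3-only protein silenced by phosphorylation, by 0.062. Bnip3 and Bnip3l, which encode mitophagy receptors, differed by -0.27 and -0.056. The Bnip3 difference ran from -1.41 in 51I1 to 1.15 in 45D3. The medians of both lists, -0.011 and 0.012, were close to that of all probe sets.

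Bcl2a1, a pro-survival gene of white blood cells, varied the most between tumours among these relatives. It had 8.39, 7.17, 8.11, 8.36 and 9.71 in final and 7.28, 8.80, 8.36, 8.10 and 8.71 in basal samples, differences of 1.11, -1.63, -0.25, 0.26 and 1.01 and a mean of 0.098 (SE 0.40, limma adjusted p = 0.959). T and NK cell markers, of which 11 of 12 were tested and 10 were higher in the mean, had per-tumour medians of 1.49, -1.26, -0.98, 1.22 and 1.26, with summed log2 signals of 9.69 to 12.23 in final and 9.26 to 11.43 in basal samples. Macrophage markers, 10 of 10 tested and 4 higher, had medians of 0.83, -1.02, -0.60, -0.50 and 1.06 and summed signals of 12.04 to 14.00 in final and 12.00 to 13.06 in basal samples. Bcl2a1 thus had the sign of the T and NK cell median in each tumour. The medians of 2 other lists had the same signs, so the match is not particular to these cells. Neutrophil markers (4 tested) had medians of 1.21, -0.36, -0.04, 0.50 and 0.40. B and plasma cell markers (2 tested) had medians of 0.48, -0.79, -0.97, 0.95 and 0.23. Single genes went against these medians, such as Gzmb among the T and NK cell markers (0.74 in 45D3). So did S100a8 of the neutrophil list, higher in 5 of 5 tumours, and Blnk of the B and plasma cell list (-0.15 in 49I1). The macrophage median had the other sign in 49I1. The part of white blood cells in the values of Bcl2a1 was not tested.

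Among 25 partners and regulators of BCL2 proteins 21 were tested, 8 of them higher and 13 lower, with 0 past the adjusted threshold and 2 at an unadjusted p under 0.05 by limma, Jun and Atf4, both lower. That is 2 of 21 genes, where 8.02% of all probe sets had such a p and 4.59% had it and were lower. Jun, a subunit of AP-1 that in cultured rat sympathetic neurons takes part in the induction of Bcl2l11, differed by -0.75 (SE 0.13, limma adjusted p = 0.413) and was lower in 5 of 5 tumours. Atf4, a transcription factor of the stress response, differed by -0.30 (limma adjusted p = 0.592), also lower in 5 of 5, as were 4.75% of all probe sets. Stat3, which drives the death of secretory cells in the involuting mouse mammary gland, differed by -0.32 (limma adjusted p = 0.671). The Stat3 difference ran from -1.07 in 51I1 to 0.066 in 66D2. Bcl6, a transcriptional repressor, differed by 0.53 (limma adjusted p = 0.66), most of it from 67D3 (1.82). Like these regulators, Bcl2l11 (-0.0080) and Bbc3 (0.11) did not pass the adjusted threshold, and no link between them was tested.

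Downstream of the mitochondria, 15 of 19 genes of the apoptosome, the caspases and their inhibitors were tested, with 6 higher and 9 lower, a median of -0.089, 0 past the adjusted threshold and 0 at an unadjusted p under 0.05 by limma. The smallest p values belonged to Dffb, the caspase-activated DNase (-0.24, final mean 5.21 and basal mean 5.45, close to the dim cutoff), and Htra2, a mitochondrial protease that relieves caspase inhibition (-0.27). Casp2, an initiator caspase, and Birc2, an inhibitor of apoptosis, differed by -0.12 and -0.11. Their adjusted p values lay between 0.656 and 0.799.

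**Figure D5:**
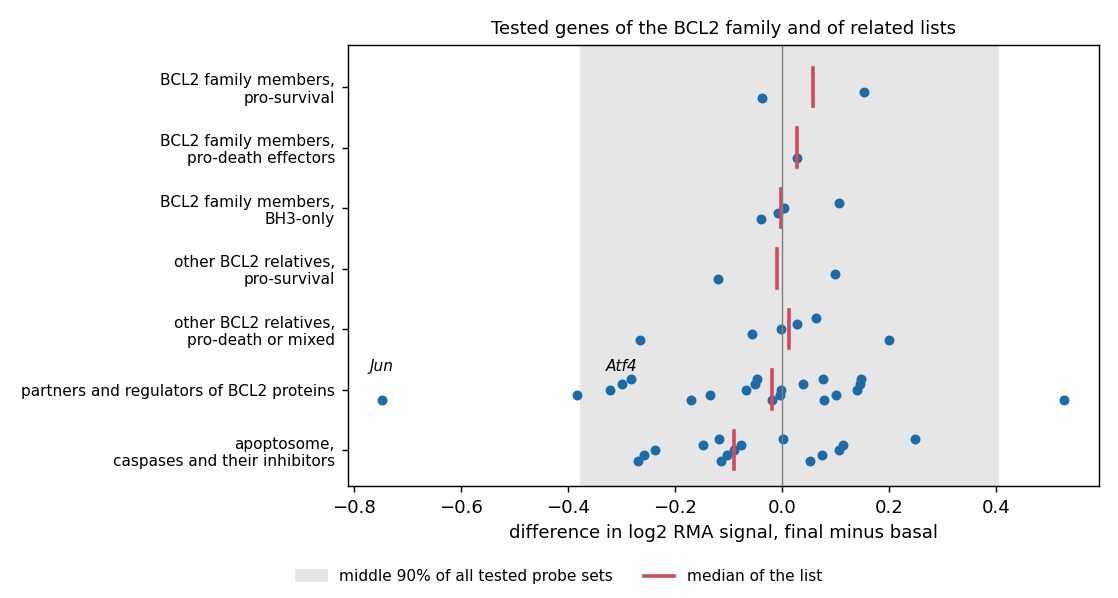
Difference in log2 RMA signal, final minus basal (horizontal axis), of the tested genes in each list (1 point a gene, shifted vertically for legibility), with list medians in red and the middle 90% of all tested probe sets (-0.38 to 0.40) in grey. All 7 tested family members lie in the grey band; Jun and Atf4, the genes named, had an unadjusted p under 0.05.

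The genes whose signal over the 10 arrays was most like that of the leading member on each side were picked from 10832 other genes by Pearson's r. For Bcl2l1 they were Myo1e (r = 0.93), Susd6 (0.91) and N4bp1 (0.91). For Bbc3 they were Nap1l3 (r = 0.95), Ubtd1 (0.94) and Pomgnt2 (0.94). The 10 arrays come from 5 tumours and are not independent, and these are the highest of all coefficients computed, so they are given as a description.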

How the data were processed

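Biotin-labelled total RNA was hybridised to Affymetrix rat arrays, per the labels. The submitters' processing notes name RMA (Robust Multichip Average), with no software version. The authors deposited 1 value per probe set and array, read here as log2 signal because of its range and the near-equal array medians. After removal of 57 control probe sets, 31042 were left, of which 20826 had 1 symbol, 436 several and 9780 none in the platform annotation.

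The 18625 probe sets past the dim filter were fitted with limma 3.58.1 (lmFit, eBayes) in R 4.3.3 and adjusted by Benjamini-Hochberg over all of them, with the tumour as a block, since the final and basal sample of a tumour carry 1 identifier in the labels (4 residual and 2.64 prior degrees of freedom). Deviations from the group means correlated at 0.72, 0.47, -0.16, 0.29 and 0.17 between the arrays of a tumour, in the order of the report, across probe sets. The scripts were tested on simulated data. A gene's main probe set was its brightest; other genes were named as the up to 4 with the smallest p of each list. Signals of the BioB spike-in, the least abundant control, averaged 8.10, and only Mcl1 and Bcl2l11 lay above it on all arrays, so ratios are given for these alone. RMA compresses differences of dim signals. Members and lists were chosen with earlier results of these data known. Precision is limited by the number of arrays. Alternatives were the tumour block, the dim filter, normalization, array weights, covariates, the choice of probe set and each tumour left out.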

Additional observations from a re-analysis of the deposited data

Results flagged for a closer look

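Among 42 sets of 5 values (14 probe sets in final samples, in basal samples and as paired differences), 3 held a value separated from the other 4 by more than 0.71 of the range, a rule that chance meets in about 1 in 20 sets. The second Bcl2l1 probe set was at 5.76 in the final sample of 45D3 (the others 5.17 to 5.33), and its final minus basal difference there was 1.17 (the others 0.09 to 0.34). Bbc3 was at 8.07 in the biopsy of 67D3 (the others 7.73 to 7.82).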

How the results depend on the processing

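Over 121 refits of the 8 members, 0 passed the adjusted threshold and 0 had an unadjusted p under 0.05 (smallest adjusted p = 0.446), but 24 changed sign. Refits that altered only the tumour block, the test or the dim filter keep each difference as it was, so they could not change sign. With the hexokinase covariate the differences were 0.027 for Mcl1, -0.14 for Bak1, -0.25 for Bid (the sign kept), -0.10 for Bik, 0.082 for Bcl2l11 and -0.085 for Bbc3. With the skeletal muscle covariate they were -0.054 for Bcl2l1, 0.030 for Mcl1, 0.072 for Bid, -0.22 for Bik and -0.065 for Bbc3 (Bcl2l11 stayed negative at -0.14). Array weights gave -0.038 for Bak1 and 0.057 for Bcl2l11. Bik was -0.015 after median centring and -0.020 after quantile normalization, and the mean over probe sets gave 0.074 for Mcl1 and 0.032 for Bid. Leaving out each tumour gave 0.042 to 0.23 for Bcl2l1, -0.085 to -0.0087 for Mcl1, 0.018 to 0.19 for Bbc3, -0.12 to 0.16 for Bak1, -0.20 to 0.078 for Bid, -0.085 to 0.15 for Bik and -0.047 to 0.068 for Bcl2l11. The cause of these shifts was not tested. The medians of both sides moved by less than their spread between tumours (SD 0.20 pro-survival, 0.22 pro-death). That spread is wide beside the medians themselves (0.057 and 0.0029), so the comparison could hardly have failed. Both medians changed sign in some settings. The pro-death one was -0.10 with the hexokinase and -0.065 with the muscle covariate. The pro-survival one was -0.012 with the muscle covariate and -0.012 without 49I1.

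Without the tumour block (no pairing), 0 probe sets passed the threshold and 1001 had an unadjusted p under 0.05. Every tumour is in both groups, so leaving out the block cannot change a difference, and that of Bcl2l1 (0.15) was the same by construction. The 1494 probe sets at an unadjusted p under 0.05 became 2276 without the dim filter, where more were tested, 3254 when arrays were weighted, 2564 with hexokinase and 575 with muscle as the covariate, and 795 (without 67D3) to 3383 (without 45D3) when a tumour was left out. The hexokinase covariate alone let 2 probe sets pass the adjusted threshold, Ccn3 and 1 with no single symbol, neither of them in the family.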
